A study of Mus musculus with 12 samples.

Results

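The Tex genes are mouse genes named for expression in testis and numbered, and they were followed here in fetal testes with and without the transcription factor Dmrt1. The members were the 32 genes whose symbol in the platform annotation begins with Tex and a digit, Tex19.1 and Tex19.2 included, without Tex11, Tex12 and Tex15. They were read through 43 probe sets that the annotation ties to a single gene, of 34945 such probe sets and 18193 genes on the array. Besides these, 1 probe set that the annotation gives to a Tex gene together with other genes was left out. The samples were whole testes of mouse embryos of stage E15.5, in 4 groups of 3 arrays each: Dmrt1 knockout on the 129Sv background, wild type on the 129Sv background, Dmrt1 knockout on the B6 background and wild type on the B6 background. The labels call the mutants knockouts and the design text speaks of a conditional removal of Dmrt1. Which allele, which Cre line and which cells that removal involved could not be read from the labels. P28 stands in the growth protocol beside the word embryos, and E15.5 was taken from the sample labels.

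The Tex name marks where a transcript was found and not what its product does, so the family is no pathway. Some members belong to germ cells: TEX14 holds open the intercellular bridges that join sister germ cells, TEX19.1 restrains retrotransposons in germ cells and placenta, and TEX101 is a lipid-anchored surface protein of germ cells without which mouse sperm cannot pass into the oviduct. Others serve cells of every kind, among them TEX10, a subunit of the PELP1-TEX10-WDR18 complex that matures the large ribosomal subunit, TEX264, a receptor through which pieces of the endoplasmic reticulum are taken into autophagosomes, and TEX2, a lipid transfer protein of the endoplasmic reticulum. At this age male germ cells of the mouse stop dividing and re-establish DNA methylation, while meiosis and the haploid stages in which many Tex genes are known to be transcribed lie after birth. DMRT1 is a DM domain transcription factor of germ cells and Sertoli cells, and germ cell tumours arise in 129Sv mice that lack it.

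Dmrt1 itself had intensities of 173, 145 and 182 in 129Sv knockout testes, against 1183, 924 and 1014 in 129Sv wild type testes. In B6 the values were 86.4, 64.0 and 72.9 in knockout testes, against 795, 1092 and 1066 in wild type testes. Every knockout array lay below every wild type array of its strain, and an exact permutation test of 3 against 3 arrays gave the smallest two-sided p it allows, 0.1, in each strain. Median intensity per array was between 17.3 and 19.0. A ratio of Actb signal at the 3′ end over that at the 5′ end, which rises when RNA is degraded or labelled short, was 6.3 on B6 knockout replicate 3, 5.24 on 129Sv knockout replicate 1, 3.91 on 129Sv wild type replicate 2 and 1.99 to 2.79 on the other arrays. Where leaving out B6 knockout replicate 3 changed the call of a gene named below or a count given below, the value without it follows. For the counts of Tex genes it is given in the last section. Defining markers of germ cells (Ddx4 and Dazl) and Sertoli cells were measured on every array. Nothing in the labels says that the replicates of a group came from separate litters, so a p-value here speaks only of the spread among these arrays, which may be technical.

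Of the 32 Tex genes, 12 passed the filter on dim genes, a log2 intensity of 4 (an intensity of 16) on at least 3 arrays. They were Tex2, Tex9, Tex10, Tex13b, Tex14, Tex19.1, Tex19.2, Tex21, Tex30, Tex101, Tex261 and Tex264, and each of these 12 lay at 16 or more on all 12 arrays, so none entered through a single group. The other 20 were Tex13a, Tex16, Tex22, Tex24, Tex26, Tex29, Tex33, Tex35, Tex36, Tex37, Tex38, Tex43, Tex44, Tex45, Tex46, Tex47, Tex48, Tex50, Tex52 and Tex55. Among these 20, Tex33 reached 19.0 on 129Sv wild type replicate 2 and Tex26 reached 17.0 on B6 knockout replicate 3, and none of the other genes among the 20 had a value above the 12.2 of Tex16 on B6 knockout replicate 3. When all 18193 genes were fitted without the filter, 1 of the 20 passed the test in 1 of 5 comparisons. That gene was Tex33, with 15.8 ± 2.90 in 129Sv wild type testes and 9.58 ± 2.37 in B6 wild type testes (SD, n = 3 each; limma adjusted p = 0.0484), close to the level of the filter.

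**Figure D1:**
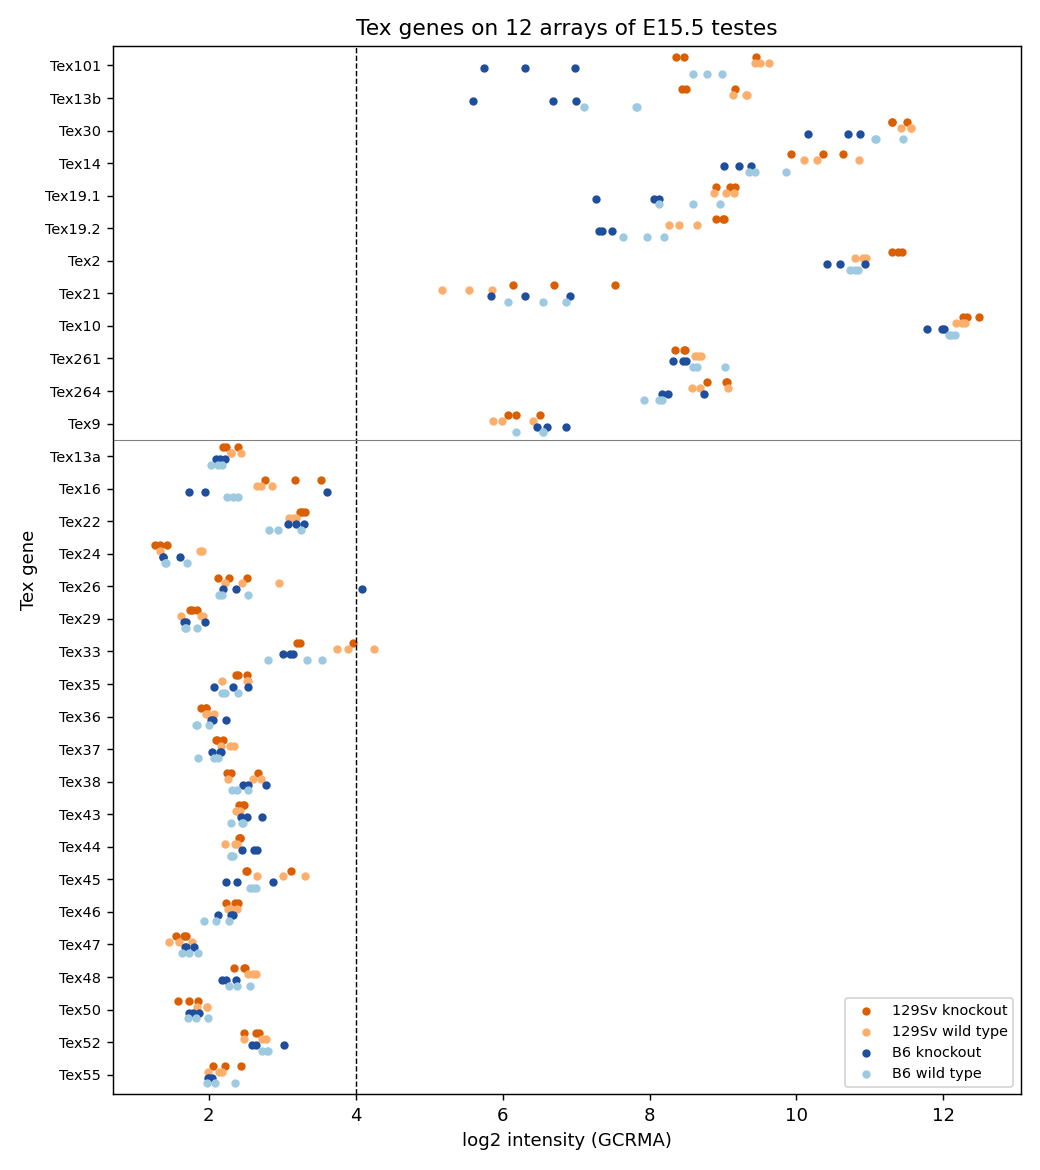
Log2 intensity (GCRMA) of each of the 32 Tex genes, with 1 point per array coloured by group and the filter level of 4 as a dashed line. The 12 genes that passed lie right of the dashed line on all 12 arrays, and of the other 20 only Tex26 and Tex33 cross it, on 1 array each.

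Promoters of the members are shown because the genes above and below the filter differed in their content of CpG, the dinucleotide that DNA methylation acts on and that fetal male germ cells methylate anew at this age. RefSeq windows (GRCm38.p6) from 250 bases before to 50 after the annotated start were found for 27 of the 32 Tex genes. Those of the 12 genes above the filter held a median of 19.5 CpG (2 to 41), those of 15 below it a median of 3 (0 to 15), and those of 27025 genes a median of 7 (0 to 65). By a CpG island rule on the window (at least 50% G and C, observed over expected CpG of at least 0.6), 8 of 12 windows above the filter (66.7%), 1 of 15 below it (6.67%, Tex26) and 34.1% of all windows were island-like. These shares are a description of the windows with no test, and methylation was not measured in this series.

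The windows below are those of 7 members whose values are compared between groups further on and of Tex44, which was below the filter with intensities of 4.64 to 6.30. They are written 5′ to 3′ on the strand of the gene, and capitals mark CpG.
Tex101, chr7:24672001-24672300, minus strand: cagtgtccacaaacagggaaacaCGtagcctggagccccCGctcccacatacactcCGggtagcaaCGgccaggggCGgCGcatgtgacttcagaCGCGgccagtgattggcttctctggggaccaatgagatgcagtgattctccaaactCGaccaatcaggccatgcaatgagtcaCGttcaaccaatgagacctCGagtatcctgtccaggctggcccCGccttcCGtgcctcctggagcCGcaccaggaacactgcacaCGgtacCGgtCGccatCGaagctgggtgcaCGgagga
Tex13b, chrX:140813384-140813683, minus strand: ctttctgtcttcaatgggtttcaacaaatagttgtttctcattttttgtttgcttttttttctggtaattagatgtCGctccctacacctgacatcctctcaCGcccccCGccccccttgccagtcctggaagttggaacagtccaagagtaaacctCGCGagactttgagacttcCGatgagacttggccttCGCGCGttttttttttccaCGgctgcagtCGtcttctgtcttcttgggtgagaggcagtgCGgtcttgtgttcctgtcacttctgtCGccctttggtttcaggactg
Tex30, chr1:44102392-44102691, minus strand: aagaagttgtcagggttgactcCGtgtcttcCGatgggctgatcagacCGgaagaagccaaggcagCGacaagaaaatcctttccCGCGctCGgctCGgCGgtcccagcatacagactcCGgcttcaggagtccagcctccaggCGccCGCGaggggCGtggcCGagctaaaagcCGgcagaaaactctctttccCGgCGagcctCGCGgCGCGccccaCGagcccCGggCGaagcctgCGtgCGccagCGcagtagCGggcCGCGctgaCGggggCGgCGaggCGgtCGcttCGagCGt
Tex14, chr11:87404815-87405114, plus strand: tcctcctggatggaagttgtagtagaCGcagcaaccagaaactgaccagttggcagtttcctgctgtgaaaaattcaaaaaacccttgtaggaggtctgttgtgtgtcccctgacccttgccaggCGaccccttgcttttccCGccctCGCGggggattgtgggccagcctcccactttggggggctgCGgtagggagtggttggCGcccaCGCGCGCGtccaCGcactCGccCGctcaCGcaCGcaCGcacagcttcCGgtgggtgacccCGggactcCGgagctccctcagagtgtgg
Tex19.1, chr11:121145893-121146192, plus strand: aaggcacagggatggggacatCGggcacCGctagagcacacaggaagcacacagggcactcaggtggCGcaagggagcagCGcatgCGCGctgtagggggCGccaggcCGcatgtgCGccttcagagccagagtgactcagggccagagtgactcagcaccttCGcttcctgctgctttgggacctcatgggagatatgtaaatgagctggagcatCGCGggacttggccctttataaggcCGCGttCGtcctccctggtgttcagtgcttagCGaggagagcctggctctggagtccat
Tex19.2, chr11:121118628-121118927, minus strand: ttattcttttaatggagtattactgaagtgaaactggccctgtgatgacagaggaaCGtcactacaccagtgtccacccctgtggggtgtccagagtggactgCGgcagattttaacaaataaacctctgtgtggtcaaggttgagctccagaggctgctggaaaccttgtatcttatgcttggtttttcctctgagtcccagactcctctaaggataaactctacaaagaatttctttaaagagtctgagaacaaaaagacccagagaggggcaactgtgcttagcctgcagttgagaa
Tex21, chr12:76246697-76246996, minus strand: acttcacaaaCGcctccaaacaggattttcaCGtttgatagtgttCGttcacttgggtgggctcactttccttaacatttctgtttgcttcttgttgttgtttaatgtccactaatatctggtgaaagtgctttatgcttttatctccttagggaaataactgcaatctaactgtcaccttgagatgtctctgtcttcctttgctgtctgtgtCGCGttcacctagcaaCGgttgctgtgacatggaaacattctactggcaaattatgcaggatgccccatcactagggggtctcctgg
Tex44, chr1:86426079-86426378, plus strand: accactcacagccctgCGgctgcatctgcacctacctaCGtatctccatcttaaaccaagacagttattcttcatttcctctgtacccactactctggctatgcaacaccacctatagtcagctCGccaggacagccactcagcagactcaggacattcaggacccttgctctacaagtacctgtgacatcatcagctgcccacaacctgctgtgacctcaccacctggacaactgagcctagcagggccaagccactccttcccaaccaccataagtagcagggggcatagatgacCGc
The window of Tex30 holds 38 CpG, that of Tex14 holds 20, that of Tex101 holds 19, that of Tex19.1 holds 16 and that of Tex13b holds 13. The windows of Tex21 with 6, Tex44 with 4 and Tex19.2 with 2 are poor in CpG. Tex19.1 and its paralogue Tex19.2 lie on chromosome 11 on opposite strands, no gene of the RefSeq table starts between them, and their windows hold 16 and 2 CpG. Motifs were searched as letters on both strands. TACANTGT, the core of the sequence that DMRT1 is known to bind, was in none of the 27 windows of Tex genes and in 2.66% of all windows. The E2F motif GCGGGAA was in 3 of 12 windows above the filter (Tex9, Tex14 and Tex30), in 1 of 15 below it (Tex26) and in 4.66% of all. The E-box CACGTG was in the windows of Tex10 and Tex36 and in 7.24% of all, and the cyclic AMP response element core TGACGT was in those of Tex19.2 and Tex36 and in 7.64% of all.

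**Figure D2:**
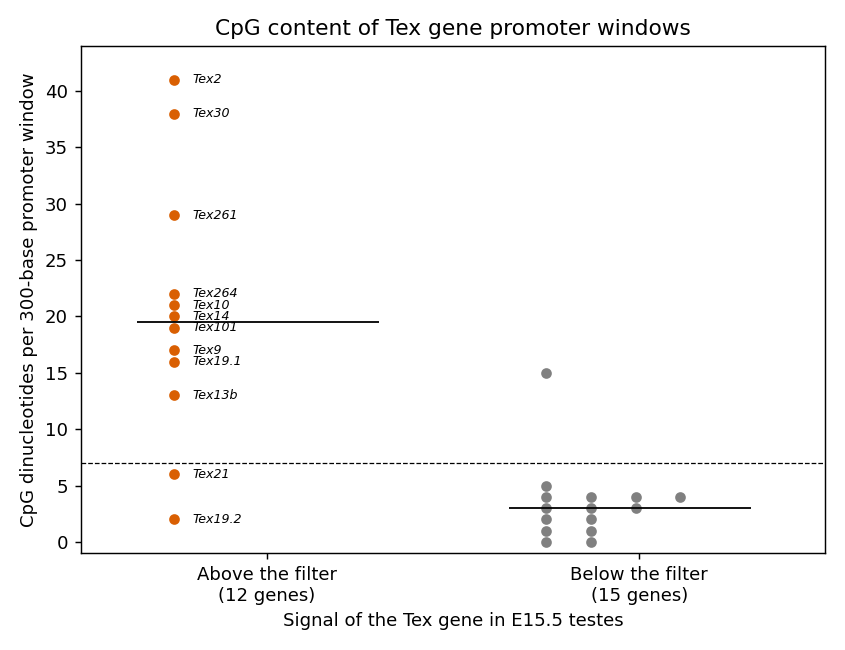
Number of CpG in the 300-base promoter window of each of the 27 Tex genes with a RefSeq window, split by whether the gene passed the filter, with the median of each set as a solid line and that of all 27025 windows as a dashed line. Above the filter Tex2 has the most with 41, whereas Tex21 and Tex19.2 have 6 and 2.

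In B6, Tex101, Tex13b and Tex30 were lower in knockout testes and no Tex gene was higher past the threshold. That is 3 of 12 tested members lower and 0 higher, at a background of 5.45% lower and 2.45% higher (7.9% in all) among all 12726 tested genes (limma, adjusted p under 0.05). The median log2 difference of the 12 was -0.34, against 0.03 over all tested genes, and 10 of the 12 differences were negative. Tex101, the germ cell surface protein, had intensities of 79.4, 53.5 and 127 in B6 knockout testes, against 387, 439 and 507 in B6 wild type testes. The knockout values were all below the wild type values, and the means were 86.6 ± 37.3 in knockout and 444 ± 60.1 in wild type testes (SD, n = 3 each). It was 5.43-fold lower in knockout testes (log2 difference -2.44 ± 0.29 SE, limma adjusted p = 0.000154), and without B6 knockout replicate 3 the log2 difference was -2.76 (adjusted p = 2.07e-05). In whole testes, fewer cells of a type and less RNA of a gene per cell cannot be told apart. The last number in the sample titles, taken up with the strains below, also separated all knockout from all wild type arrays in B6.

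Tex13b, an X-linked member of the TEX13 family, had 103, 128 and 48.3 in B6 knockout testes, against 137, 224 and 227 in B6 wild type testes. The groups did not overlap, and the nearest arrays were knockout replicate 2 at 128 and wild type replicate 1 at 137. The gene was 2.22-fold lower in knockout testes (-1.15 ± 0.31, limma adjusted p = 0.0345). Without B6 knockout replicate 3 the log2 difference of Tex13b was -0.74 (adjusted p = 0.0937), and the call also ended without B6 wild type replicate 2 (0.118) or 3 (0.142) or 129Sv wild type replicate 3 (0.0502). A further probe set of Tex13b had 27.8, 28.3 and 20.3 in B6 knockout testes, against 36.0, 81.9 and 76.9 in wild type testes, and it was lower as well (-1.28 ± 0.33, adjusted p = 0.0422 over all probe sets, where the probe set that stood for the gene had 0.0516).

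Tex30 had 1862, 1669 and 1147 in B6 knockout testes, against 2170, 2154 and 2792 in B6 wild type testes. It was 1.54-fold lower with no overlap (-0.62 ± 0.16, limma adjusted p = 0.0232). Its lowest value stood on B6 knockout replicate 3, and without that array the log2 difference of Tex30 was -0.42 (adjusted p = 0.0608). The call ended likewise without B6 wild type replicate 3 (adjusted p = 0.128).

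The Tex19 paralogues came close to the threshold in B6. Tex19.1 had 266, 279 and 154 in B6 knockout testes, against 279, 499 and 387 in wild type testes, with a log2 difference of -0.75 ± 0.23 (limma adjusted p = 0.062). It passed without B6 knockout replicate 1 (adjusted p = 0.0454) or B6 wild type replicate 1 (0.0227), and without B6 knockout replicate 3 the adjusted p was 0.202. Tex19.2 had 180, 164 and 159 in B6 knockout testes, against 199, 293 and 249 in wild type testes (-0.55 ± 0.16, limma adjusted p = 0.0534, 0.0219 without B6 wild type replicate 1, and 0.109 without B6 knockout replicate 3). The first number in the sample titles, whose meaning the labels leave unsaid, is the same for knockout and wild type replicate 1 of B6. It is shared again by knockout and wild type replicate 2 of B6. With this number as a random block the adjusted p of Tex19.2 in B6 was 0.0421. Neither paralogue overlapped between the groups, though for Tex19.1 the highest knockout array at 278.6 lay just under the lowest wild type array at 279.3. Tex10 (-0.19, adjusted p = 0.182, and 0.482 without B6 knockout replicate 3) and Tex261 (-0.33, adjusted p = 0.167, and 0.336 without that array) were also lower on every B6 knockout array than on every wild type array without passing. Such separation downwards was seen in 13.4% of all tested genes, and separation upwards in 14.3%. Tex14, Tex2, Tex21, Tex264 and Tex9 overlapped between the groups in B6 and did not pass, with adjusted p between 0.3 and 0.828. Tex261, a relative of a yeast protein that carries cargo out of the endoplasmic reticulum, had 362, 350 and 319 in B6 knockout testes, against 387, 521 and 399 in B6 wild type testes. Tex264 had 303, 287 and 426 in B6 knockout testes, against 289, 280 and 243 in wild type testes.

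In 129Sv testes Tex2 and Tex21 rose in the knockout, 2 of 12 members higher and 0 lower, at a background of 4.07% higher and 4.24% lower (8.31% in all) among all tested genes. The median log2 difference of the 12 was 0.08, against -0.01 over all tested genes. Tex2, the lipid transfer protein, had 2521, 2767 and 2664 in 129Sv knockout testes, against 1921, 1776 and 1982 in 129Sv wild type testes. The knockout arrays lay together and above all wild type arrays, 1.40-fold higher (0.49 ± 0.12, limma adjusted p = 0.0181). Left-out arrays moved the adjusted p of Tex2 past the threshold for 129Sv knockout replicate 2 (0.0736) and 129Sv wild type replicates 1 (0.0599) and 2 (0.0729). In B6 the values of Tex2 were 1960, 1550 and 1369 in knockout testes, against 1786, 1696 and 1830 in wild type testes, with the wild type arrays inside the range of the knockout arrays.

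Tex21 had 70.8, 104 and 184 in 129Sv knockout testes, against 36.0, 57.6 and 46.6 in 129Sv wild type testes. The 3 knockout arrays were spread widely and all lay above the wild type arrays, and the gene was 2.41-fold higher (1.27 ± 0.34, limma adjusted p = 0.0317). The call of Tex21 ended without 129Sv knockout replicate 2 (adjusted p = 0.0846) or 3 (0.123), or without 129Sv wild type replicate 1 (0.143) or 3 (0.0904). The other probe set of Tex21 was below the filter. In B6 the values of Tex21 were 121, 79.2 and 57.3 in knockout testes, against 67.5, 117 and 93.4 in wild type testes, which overlapped. A different title number, the one before the strain, was shared by all 129Sv knockout arrays and 129Sv wild type replicate 2. The other 129Sv wild type arrays did not share it. The fit with the number before the strain as a covariate left out B6 wild type replicate 3. In it the limma adjusted p in 129Sv was 0.122 for Tex2 and 0.441 for Tex21. In B6, where the number does not vary among the arrays fitted, it was 0.17 for Tex13b and 0.154 for Tex30. Leaving out B6 wild type replicate 3 alone gave 0.142 for Tex13b and 0.128 for Tex30 in B6.

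Tex19.2 in 129Sv had 510, 481 and 517 in knockout testes, against 339, 401 and 308 in wild type testes, a log2 difference of 0.53 ± 0.16 (limma adjusted p = 0.0573, and 0.0374, 0.0404 and 0.0449 without B6 knockout replicate 3, B6 wild type replicate 1 or B6 wild type replicate 2, which enter only the shared spread). All knockout arrays were above all wild type arrays, the reverse of B6. Tex101, the gene with the largest difference among the 12 in B6, had 355, 330 and 699 in 129Sv knockout testes, against 692, 791 and 729 in 129Sv wild type testes (-0.76 ± 0.29, adjusted p = 0.138). Its knockout arrays were split, with replicates 1 and 2 below every wild type array and replicate 3 among them. Without 129Sv knockout replicate 3 the log2 difference of Tex101 was -1.11 (adjusted p = 0.0215). Tex13b had 348, 362 and 573 in 129Sv knockout testes, against 565, 634 and 640 in wild type testes, the same split by replicate (-0.56 ± 0.31, adjusted p = 0.335). Tex19.1, with 545, 480 and 575 in knockout testes and 566, 469 and 527 in wild type testes, had a log2 difference of 0.03 ± 0.23 in 129Sv (adjusted p = 0.958). Tex261 was lower on all knockout arrays, with 324, 359 and 355 in knockout testes, against 417, 405 and 391 in wild type testes (-0.23 ± 0.14, adjusted p = 0.405). Separation of all arrays was seen in 14.2% of tested genes upwards and 14.6% downwards in 129Sv. The remaining members overlapped between the 129Sv groups. Tex30 had 2530, 2511 and 2902 in 129Sv knockout testes, against 2757, 3029 and 3025 in wild type testes (adjusted p = 0.659). Tex264 had 534, 440 and 529 in 129Sv knockout testes, against 383, 537 and 413 in wild type testes (adjusted p = 0.641).

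**Figure D3:**
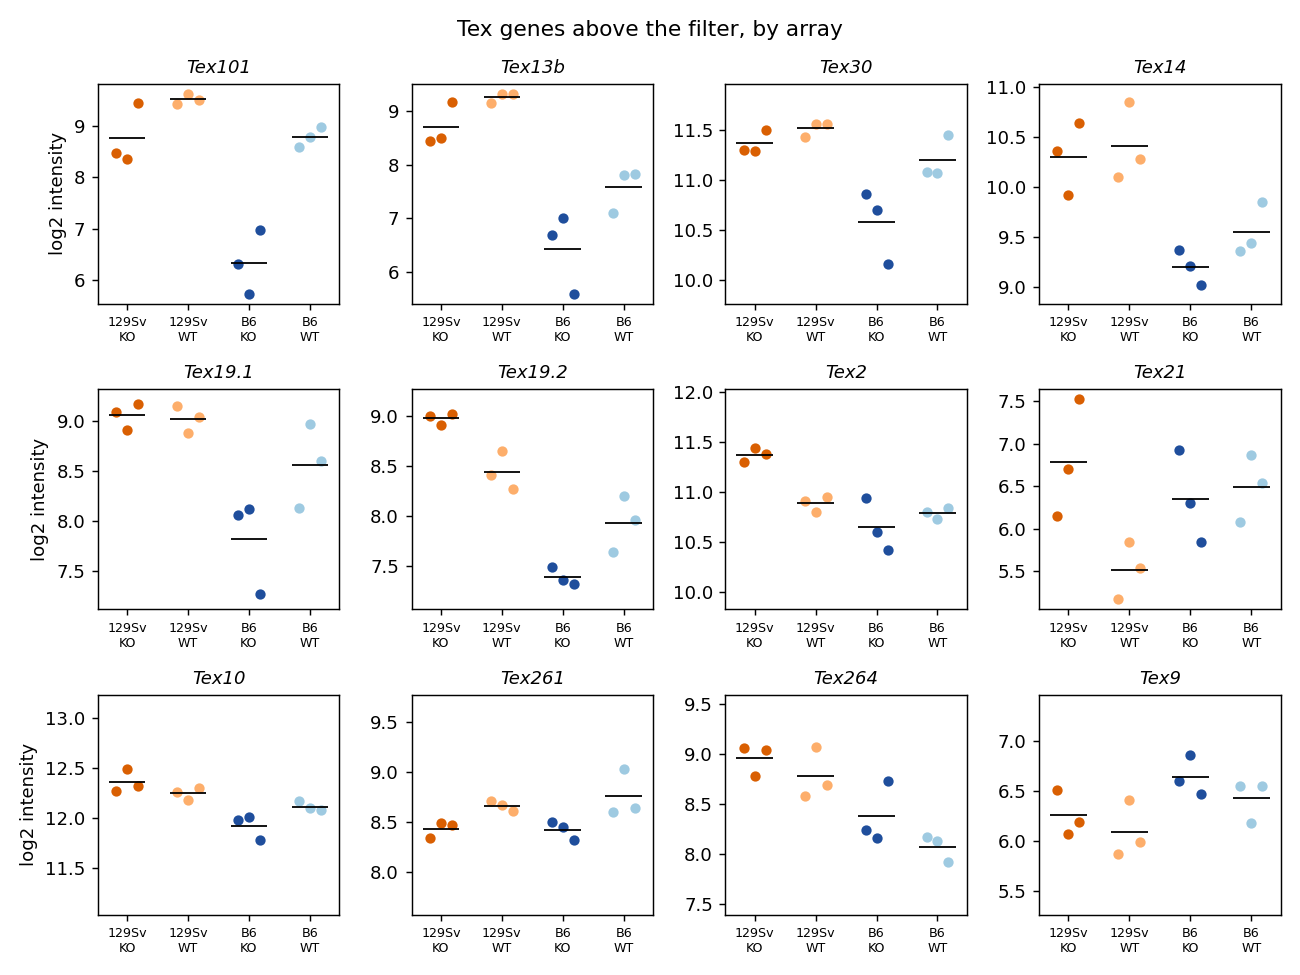
Log2 intensity of the 12 tested Tex genes, a panel each with an axis of its own, for 129Sv knockout (KO), 129Sv wild type (WT), B6 knockout and B6 wild type testes. Points are arrays and lines are group means. Tex101 is lowest on the 3 B6 knockout arrays, and Tex19.2 is highest on the 3 129Sv knockout arrays.

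The knockout effect of Tex19.2 differed between the strains. The test of the difference itself, 129Sv effect minus B6 effect, gave 1.08 ± 0.23 on the log2 scale (limma adjusted p = 0.0383), since the fitted effect was 0.53 in 129Sv and -0.55 in B6. It was the only 1 of 12 Tex genes to pass that test, at a background of 1.31% of all tested genes (1.12% in the positive direction), and the 12 had a median difference of 0.54, against -0.03 over all tested genes. The call of Tex19.2 depended on single arrays: leaving out single arrays gave adjusted p between 0.0207 and 0.116, and 4 of the 12 such fits kept it, those without 129Sv wild type replicate 2, B6 knockout replicate 1, B6 knockout replicate 3 (0.0427) and B6 wild type replicate 1. With the title number as a covariate the adjusted p of Tex19.2 was 0.26, and without the arrays of the highest Actb ratio it was 0.0708. For Tex101 the difference of effects was 1.68 ± 0.42 (adjusted p = 0.0642), and without B6 knockout replicate 3 it was 2.00 (adjusted p = 0.014). The test of Tex101 also passed with the first title number as a random block (adjusted p = 0.0496), with the Actb ratio as a covariate (0.0477) and without the arrays of the highest Actb ratio (0.0122). For Tex2 it was 0.62 ± 0.17 (adjusted p = 0.0877), and without B6 knockout replicate 1 the test of Tex2 passed. Those of Tex21 (1.41 ± 0.48, adjusted p = 0.174) and Tex19.1 (0.78 ± 0.33, adjusted p = 0.256) did not pass. Dmrt1 itself had a difference of effects of 1.08 ± 0.24 (adjusted p = 0.045), with the knockout intensities of 145 to 182 in 129Sv and 64.0 to 86.4 in B6 given above. Probe sequences were not used here, so how far the probe sets of the Tex19 paralogues take up each other's transcript was not tested.

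**Figure D4:**
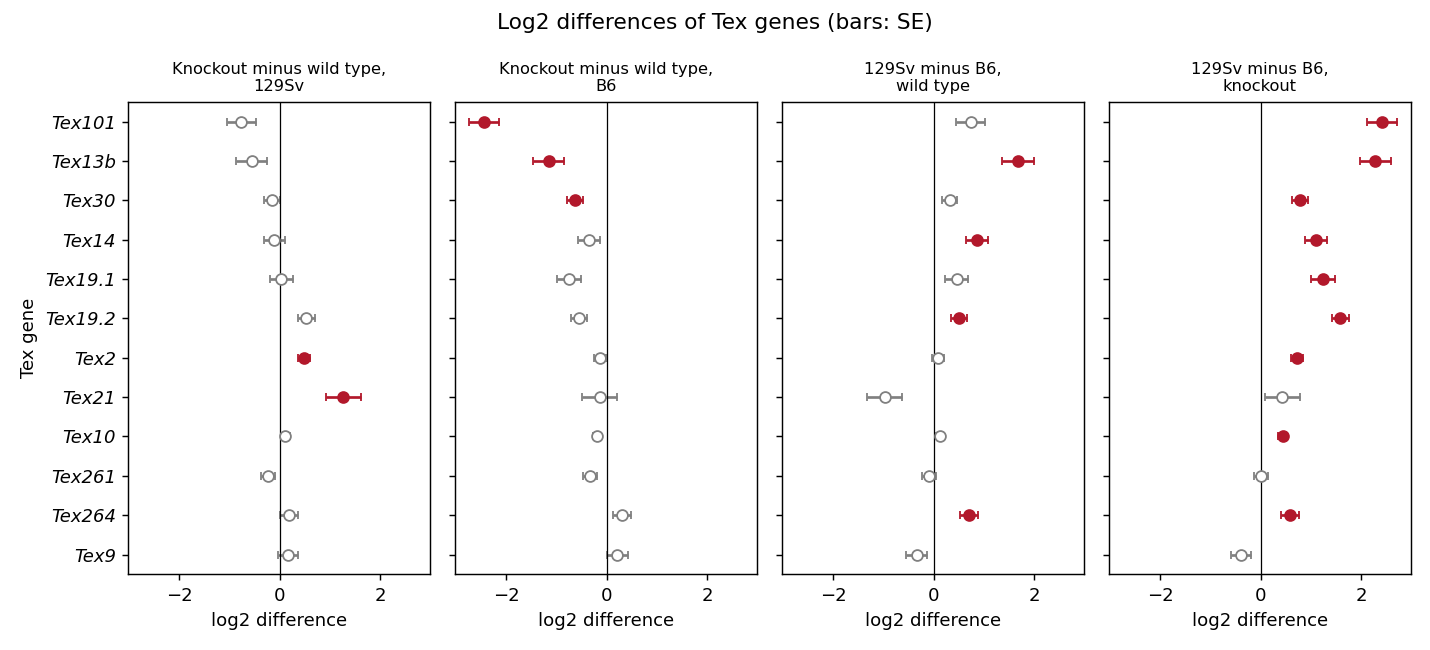
Fitted log2 difference with its standard error for the 12 tested Tex genes, in panels for knockout minus wild type in 129Sv and in B6 and for 129Sv minus B6 in wild type and in knockout testes; filled points passed the threshold. The knockout difference of Tex19.2 stands at 0.53 in 129Sv and at -0.55 in B6.

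The strains were then compared within each genotype. The last number in the sample titles, of unstated meaning, was lower on every B6 array than on every 129Sv array. Whatever it stands for cannot be told apart from strain. Within B6 it was also lower on every knockout array than on every wild type array. It therefore cannot be told apart from the knockout in B6, nor from the B6 part of the differences of effects. In 129Sv the knockout and wild type arrays overlapped in this number. Among knockout testes, 9 of 12 members were higher in 129Sv than in B6 and none was lower, at a background of 20.3% higher and 13.8% lower (34.1% in all) among all tested genes. The median log2 difference of the 12 was 0.76, against 0.03 over all tested genes. Tex101 was 5.34-fold higher in 129Sv knockout than in B6 knockout testes (2.42 ± 0.29, limma adjusted p = 3.42e-05) and Tex13b 4.85-fold (2.28 ± 0.31, adjusted p = 8.49e-05). Tex19.2 was 3.00-fold higher (1.59 ± 0.16, adjusted p = 7.11e-06) and Tex19.1 2.36-fold (1.24 ± 0.23, adjusted p = 0.001). The others were Tex14 (2.15-fold, adjusted p = 0.00121), Tex30 (1.73-fold, 0.00146), Tex2 (1.65-fold, 0.000394), Tex264 (0.58 ± 0.18 on the log2 scale, 0.0216) and Tex10 (1.36-fold, 0.00133). Without B6 knockout replicate 3, 9 members were again called. Tex264 lost its call without 129Sv knockout replicate 1 or 3 or B6 knockout replicate 1 or 2 (adjusted p up to 0.0876).

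Among wild type testes 4 of 12 members were higher in 129Sv than in B6 and none was lower, at a background of 10.9% higher and 5.19% lower (16.1% in all). The median log2 difference was 0.39, against 0.06 over all tested genes. Tex13b was 3.20-fold higher in 129Sv wild type testes, where it had 565, 634 and 640, than in B6 wild type testes with 137, 224 and 227 (1.68 ± 0.31, limma adjusted p = 0.00231). The further probe set of Tex13b did not pass between wild types (0.97 ± 0.33, adjusted p = 0.0683 over all probe sets). Between knockout testes that probe set was higher in 129Sv (1.38 ± 0.33, adjusted p = 0.0074). Tex14, the bridge protein, had 1101, 1849 and 1247 in 129Sv wild type testes, against 657, 694 and 926 in B6 wild type testes, 1.82-fold higher (0.86 ± 0.21, adjusted p = 0.0125). Neither gene overlapped between the strains. Tex264, the receptor of endoplasmic reticulum autophagy, had 383, 537 and 413 in 129Sv wild type testes, against 289, 280 and 243 in B6 wild type testes (1.63-fold, adjusted p = 0.0153). Tex19.2 had 339, 401 and 308 in 129Sv and 199, 293 and 249 in B6 wild type testes (1.42-fold, adjusted p = 0.0454), and 10 of 12 fits with an array left out ended that call, with adjusted p up to 0.2. Tex14 lost its call without 129Sv wild type replicate 2 (0.0737) or B6 wild type replicate 1 (0.0618) or 2 (0.0524), and Tex264 without 129Sv wild type replicate 2 (0.0866) or B6 wild type replicate 3 (0.0539). Tex21 ran the other way, with 36.0, 57.6 and 46.6 in 129Sv wild type testes, all below the 67.5, 117 and 93.4 of B6 wild type testes (-0.98 ± 0.34, adjusted p = 0.0659). Tex101 had a log2 difference of 0.74 ± 0.29 without passing (adjusted p = 0.102). Without B6 knockout replicate 3, which enters these fits only through the shared spread, the adjusted p was 0.0366 for Tex21 and 0.039 for Tex101, and Tex21 also passed without 129Sv knockout replicate 1 (0.0479) or 3 (0.0387) or B6 knockout replicate 1 (0.0497). Among all tested genes 26.6% were separated upwards and 14.1% downwards in this comparison, and in that of the knockout testes 25% and 18.8%.

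Across both genotypes, 4 Tex genes (Tex10, Tex13b, Tex14 and Tex19.2) had all 6 129Sv arrays above all 6 B6 arrays, and none had them all below. Among all tested genes, 8.57% had all 6 129Sv arrays above and 5.62% had all 6 below. Tex14 had 1316, 968 and 1593 in 129Sv knockout testes, against 664, 594 and 519 in B6 knockout testes. Tex10 had 4949, 5746 and 5118 in 129Sv knockout testes and 4900, 4624 and 5045 in 129Sv wild type testes, against 4031, 4122 and 3507 in B6 knockout and 4591, 4381 and 4315 in B6 wild type testes. For 10 of the 12 members the lowest array was a B6 array and for 8 it was B6 knockout replicate 3, whose Actb ratio of 6.3 was the highest of the series. With that ratio as a covariate, 9 Tex genes were called between 129Sv knockout and B6 knockout testes, and 1, Tex101, in the B6 knockout comparison. Tex261 and Tex9, each read through the probe set of its highest mean, passed no test of strain or knockout, and Tex21 none of strain.

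The 3 Tex genes left out of the set are the comparison nearest to it. Tex15, which acts in transposon silencing in germ cells, had 600, 560 and 851 in B6 knockout testes, against 1942, 1639 and 2850 in B6 wild type testes (3.17-fold lower, limma adjusted p = 0.000194). In 129Sv it had 2187, 1899 and 2930 in knockout testes, against 4032, 4712 and 3652 in wild type testes (1.79-fold lower, adjusted p = 0.0207). Tex12, a component of the synaptonemal complex of meiosis, was 3.26-fold lower in B6 knockout testes (adjusted p = 0.00106) and 1.81-fold lower in the 129Sv fit without passing (adjusted p = 0.0621, and 0.0142 without B6 knockout replicate 3). Tex11, an X-linked meiotic gene, passed in neither strain (adjusted p = 0.647 in 129Sv and 0.333 in B6), though without B6 knockout replicate 3 it passed as higher in 129Sv (0.0263), and its intensity was 14.6 on B6 knockout replicate 3, against 130 and 135 on the other B6 knockout arrays. All 3 were higher in 129Sv knockout than in B6 knockout testes, at a background of 20.3% of all tested genes.

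Genes that work beside the germ cell members were read from lists chosen by function, with earlier results of these data known. Among all tested genes, 5.45% were called lower and 2.45% higher in the B6 knockout. In the 129Sv knockout 4.24% were called lower and 4.07% higher. These shares are the background of the knockout counts of all lists below. Of 12 transposon silencing genes, the setting of Tex19.1, 10 fell in B6 knockout testes and none rose. Dnmt3l, cofactor of de novo DNA methylation, fell 23.5-fold (limma adjusted p = 0.000107), Tdrd9 fell 11.8-fold (0.000363), Morc1 fell 5.46-fold (4.07e-06) and Piwil4 fell 5.37-fold (0.000113). Without B6 knockout replicate 3, 9 of the 12 fell in B6, the log2 difference of Dnmt3l was -5.34 and that of Dnmt3a no longer passed (adjusted p = 0.0562). The lists without that array were read after the data were seen. In 129Sv knockout testes 2 of the 12 fell, Tdrd9 4.38-fold (adjusted p = 0.0118) and Morc1 1.64-fold (0.0339), and 4 fell without B6 knockout replicate 3, which enters there only through the shared spread. Of 4 tested genes around TEX101, Dpep3, the membrane dipeptidase that binds TEX101 in the testis, fell 7.98-fold in 129Sv (adjusted p = 0.00205) and at least 12.2-fold in B6 (0.00016), and Clgn, an endoplasmic reticulum chaperone of sperm proteins, fell 4.04-fold in B6 (0.0377; log2 difference -2.61 without B6 knockout replicate 3). Dpep3 had 8.14, 10.2 and 10.7 in B6 knockout testes, against 101, 143 and 510 in B6 wild type testes, and since the knockout mean was under the filter level its fold was taken against an intensity of 16. Clgn passed in 129Sv as well when B6 knockout replicate 3 was left out (adjusted p = 0.0225). The other 4 of that list, Adam2, Adam3, Calr3 and Pdilt, were below the filter. Of 4 tested spermatid genes 3 fell in each strain, among them Ldhc, the germ cell lactate dehydrogenase, 4.97-fold in 129Sv (adjusted p = 0.000671) and, taken against 16 likewise, at least 9.11-fold in B6 (1.01e-05), while the other 7 of the list were below the filter.

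Lists around the other members were read next. Of 8 intercellular bridge and midbody genes, the setting of Tex14, 1 fell in B6 knockout testes, Anln, which encodes the contractile ring protein anillin (1.35-fold, limma adjusted p = 0.0428), and none passed in 129Sv. Once B6 knockout replicate 3 was left out, Anln no longer passed in B6 (adjusted p = 0.137), Cep55 passed as lower (0.0169), Rbm44 passed as higher (0.00409), and Kif23 passed as lower in 129Sv (0.0326). Between the strains 5 of the 8 were higher in 129Sv knockout than in B6 knockout testes, at a background of 20.3% of all tested genes. Rbm44, a partner of TEX14 in the bridge, was 2.40-fold higher (limma adjusted p = 0.0151) and Anln 2.32-fold (7.08e-06). With B6 knockout replicate 3 left out, the log2 difference of Rbm44 was 0.62 (adjusted p = 0.00511). Of 6 partners of TEX10, none passed in the 129Sv knockout. In the B6 knockout Las1l rose 1.60-fold (adjusted p = 0.0346) and Mdn1 fell 1.76-fold (0.0263), and without B6 knockout replicate 3 the adjusted p was 0.0976 for Las1l and 0.0393 for Mdn1. Of 6 receptors of endoplasmic reticulum autophagy, Retreg1 rose 1.96-fold in 129Sv knockout testes (adjusted p = 0.000558) and none passed in B6. Ccpg1 rose too in 129Sv (adjusted p = 0.048) and Retreg1 in B6 (0.0381) without B6 knockout replicate 3. None of the 4 other genes with an SMP domain, the lipid transfer domain of TEX2, passed in either knockout comparison.

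General germ cell markers were compared in the same way. The list held 12 genes, of which Tdrd6, Nanos2 and Nanos3 were not analysed here, and it shares Mael and Tdrd1, both lower in the B6 knockout, with the transposon silencing list. Of 9 tested general germ cell genes, 7 fell in B6 knockout testes, with Brdt 6.75-fold (limma adjusted p = 0.000203) and Gtsf1 6.17-fold lower (7.68e-06), and 1 fell in 129Sv knockout testes, Brdt 3.47-fold (0.00431). Without B6 knockout replicate 3, 7 again fell in B6, while in 129Sv 2 fell, Brdt and Tdrd1 (adjusted p = 0.0445), and Dazl rose (0.017). Their summed intensity per array was 6255 to 9627 in B6 knockout testes, against 13740 to 15610 in B6 wild type testes, with the lowest value on B6 knockout replicate 3 and 8297 to 9627 on the other B6 knockout arrays. It was 15310 to 20160 in 129Sv knockout testes, against 18330 to 19350 in 129Sv wild type testes. All 9 were higher in 129Sv knockout than in B6 knockout testes, at a background of 20.3% of all tested genes. Ddx4, the helicase of all germ cells at this age, had 2771, 2298 and 1700 in B6 knockout testes, against 3060, 2859 and 3223 in B6 wild type testes, without passing (-0.46 ± 0.15, adjusted p = 0.0855, and -0.27 with 0.286 without B6 knockout replicate 3). Dazl, a translation factor of germ cells, had 2930, 2258 and 1273 in B6 knockout testes, against 2287, 2208 and 2204 in wild type testes (-0.13 ± 0.20, adjusted p = 0.71, and 0.20 with 0.36 without that array). The part of germ cell number in the Tex differences was not tested.

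Markers of somatic cells were read likewise. Sertoli cells came first, and of their 9 markers 2 fell in 129Sv knockout testes (Cst9 and Fshr). In B6 knockout testes 3 fell (Cst9, Fshr and Sox8, the last with a limma adjusted p of 0.0654 without B6 knockout replicate 3). Their summed intensity was 11520 to 12540 in 129Sv knockout against 14110 to 15210 in 129Sv wild type testes, and 11890 to 12790 in B6 knockout against 14660 to 15790 in B6 wild type testes. No marker of fetal Leydig cells (4 tested), endothelium (6), macrophages and leukocytes (6) or peritubular and interstitial cells (5) passed in either knockout comparison, except that without B6 knockout replicate 3 the endothelial genes Tek (limma adjusted p = 0.0298) and Flt1 (0.0366) fell in 129Sv. The summed Leydig intensity was nonetheless 13690 to 15420 in 129Sv knockout, against 17000 to 17770 in 129Sv wild type testes. That of the endothelial markers was 829 to 1090, against 1172 to 1258. Both sums overlapped between the genotypes in B6, and those of the remaining somatic sets overlapped in both strains. In 129Sv knockout against B6 knockout testes, 3 Leydig, 3 endothelial and 3 macrophage and leukocyte markers were lower in 129Sv. Among all tested genes 13.8% were lower there. Without B6 knockout replicate 3, it was 2 macrophage and leukocyte and 4 endothelial markers. The summed macrophage and leukocyte intensity was 719 to 788 in 129Sv knockout, against 1215 to 2345 in B6 knockout testes. The part of these cells in the strain differences was not tested.

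For Tex9 the answer depended on the probe set. The probe set with its highest mean, which stood for the gene, had 91.2, 67.1 and 72.9 in 129Sv knockout testes, against 58.2, 84.9 and 63.6 in 129Sv wild type testes, and it passed in no comparison. In B6 it had 97.1, 116 and 88.3 in knockout testes, against 93.5, 72.4 and 93.6 in wild type testes. The groups overlapped in both strains. Another probe set had 79.0, 94.1 and 65.0 in 129Sv knockout testes, against 37.6, 33.7 and 44.7 in wild type testes, with no overlap (1.03 ± 0.20, limma adjusted p = 0.00697 over all probe sets). In B6 that probe set had 57.5, 48.3 and 55.6 in knockout testes, against 36.4, 33.5 and 27.2 in wild type testes, again with no overlap (0.74 ± 0.20, adjusted p = 0.0495). Which transcripts of Tex9 the probe sets take up was not tested. The 3 probe sets of Tex261 passed in no comparison, and both tested probe sets of Tex10 were higher in 129Sv knockout than in B6 knockout testes (0.44, adjusted p = 0.00174, and 0.67, adjusted p = 0.00281).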

How the data were processed

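RNA of whole testes was hybridised to 12 arrays, 3 per group, and their number limits the precision. The deposited values are linear intensities, which the authors made with GCRMA per the submitters' processing notes. No version or setting of GCRMA could be read from the labels, and log2 was taken here. Groups and replicate numbers came from the sample descriptions. The platform annotation gave gene names to probe sets, 34958 with 1 gene, 932 with several and 9211 with none, with control probe sets left out. A gene was read through its probe set of 1 gene with the highest mean over the arrays, and the 12726 genes at a log2 intensity of 4 or higher on at least 3 arrays were tested.

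The 12 arrays entered a single linear model with a mean for each of the 4 groups (limma 3.58.1, R 4.3.3; lmFit, eBayes with trend, 8 residual and 6.71 prior degrees of freedom). Benjamini-Hochberg adjustment ran over every gene tested, a gene was called at an adjusted p under 0.05, and errors of log2 differences are standard errors. The fit was tested on simulated data. The alternatives were other filters, probe set rules, normalisations and designs, array weights, the Actb ratio, title numbers, a replicate block and each array left out. The gene lists without B6 knockout replicate 3 were added after seeing the data.

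The members and gene lists were chosen with earlier results of these data known. Every Tex gene was accounted for; besides these, Dmrt1, Tex11, Tex12, Tex15, marker genes and up to 4 genes per list and contrast with the largest called differences were named. Ddx4 and Dazl were named after their values were seen. Promoter windows came from the first RefSeq entry of a gene.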

Additional observations from a re-analysis of the deposited data

Results flagged for a closer look

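The effect of the Dmrt1 knockout on Tex19.2 stood out because it differed between the strains by a direct test of the difference. The 129Sv effect minus the B6 effect was 1.08 on the log2 scale (limma adjusted p = 0.0383), with intensities of 503 ± 18.9 in 129Sv knockout, 349 ± 47.4 in 129Sv wild type, 168 ± 10.6 in B6 knockout and 247 ± 47.0 in B6 wild type testes (SD, n = 3 each). Every 129Sv knockout array lay above every 129Sv wild type array, and every B6 knockout array lay below every B6 wild type array. The call ended in 8 of 12 fits that each left out an array (adjusted p up to 0.116). It also ended without the arrays of the highest Actb ratio (0.0708) and when the title number before the strain was a covariate (0.26).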

How the results depend on the processing

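Of 60 comparisons of a Tex gene (12 genes, 5 contrasts), 19 passed the threshold, and 10 of these passed under all 16 alternative settings and all 12 left-out arrays: Tex101 in the B6 knockout, Tex13b between wild types, and Tex10, Tex101, Tex13b, Tex14, Tex19.1, Tex19.2, Tex2 and Tex30 between knockouts. Of the 41 others, 26 passed under no alternative, and no called value changed sign. In the setting with every probe set on its own, a gene counted as called if any of its probe sets passed. Tex13b between wild types passed there through the probe set that stood for it (limma adjusted p = 0.00343) and not through the further one (0.0683). Counts of Tex genes called moved by over 1.5 times as follows, and the cause was not tested. For the 129Sv knockout, 2 became 0 with the number that precedes the strain in the titles as a covariate, in a fit without B6 wild type replicate 3. For the B6 knockout, 3 became 1 with the Actb ratio as a covariate, without the arrays of the highest Actb ratio, and in a fit of only the groups compared. It became 1 as well in the fit with the title covariate, which does not vary within B6. Leaving out B6 wild type replicate 3 alone also gave 1, and so did leaving out B6 knockout replicate 3 alone. For the difference of effects, 1 became 0 with that title covariate, with the probe set of the largest variance and with every probe set on its own. It became 2 with the first title number as a random block or the Actb ratio as a covariate, and 4 with array weights. Between wild types, 4 became 8 with array weights. Leaving out single arrays gave 0 to 3 for the 129Sv knockout, 1 to 5 for B6, 0 to 2 for the difference of effects, 1 to 6 between wild types and 8 to 9 between knockouts. In the same order, the counts without B6 knockout replicate 3 were 3, 1, 2, 6 and 9. Correlations of deviations between same-numbered knockout and wild type arrays ran from -0.466 to 0.00759. With 3 arrays per group they cannot show whether the samples were paired. In B6, knockout and wild type replicates 1 and 2 share their first title numbers by replicate. The replicate block gave 2, 3 and 1 Tex genes called in the 129Sv knockout, the B6 knockout and the difference of effects, 3 between wild types and 9 between knockouts. In the difference of effects the gene called under that block was Tex101 (adjusted p = 0.0347) and not Tex19.2 (0.0589), and between wild types Tex19.2 was no longer called. Without the arrays of the highest Actb ratio the gene called in the difference of effects was likewise Tex101. Intensities near 16 carry little signal above background, so values of the 20 dim members, and the test of Tex33 without the filter, rest on little signal.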
